A study of Homo sapiens with 12 samples.

Results

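The genes described here encode RNA polymerase I (Pol I), the factors that bring it to the ribosomal RNA genes, and the nucleolar proteins that modify, cut and fold ribosomal RNA while it is assembled into ribosomal subunits. They form a set of 58 genes chosen by function, whose symbols were matched to the Ensembl identifiers of the expression files. All 58 were found among the 60617 genes of the files, and all 58 were among the 15692 genes that passed the filter on low counts. By role the set held 8 subunits of Pol I, 7 factors of Pol I initiation and termination, 7 nucleolar chaperones and scaffold proteins, 4 proteins of box C/D and 4 of box H/ACA small nucleolar ribonucleoproteins (snoRNPs), 14 proteins of small subunit assembly and 14 of large subunit assembly.

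Ribosomes are made in the nucleolus. Pol I copies the ribosomal RNA genes into a long precursor after UBTF has opened their chromatin, the selectivity factor with its subunits TAF1A to TAF1D has bound the promoter and RRN3 has recruited the polymerase. Box C/D and box H/ACA snoRNPs then methylate and pseudouridylate the precursor, while processome proteins, helicases, GTPases and methyltransferases fold and trim it around the ribosomal proteins. Actinomycin D (Act D) binds GC-rich DNA and at low doses blocks Pol I before the other polymerases, so that it is widely used to provoke nucleolar stress. The genes themselves are transcribed by RNA polymerase II, and their mRNAs are what was measured here, not ribosomal RNA.

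The study compared 2 related cell lines by RNA-seq. The parent, HCT 116p53-/-, is a colon cancer line of human origin that lacks p53, and the other is a sub-line of it that the labels describe as an RPL3 knockout (RPL3 KO) and the study as stably silenced for uL3, the large subunit protein encoded by RPL3 (uL3ΔHCT 116p53-/-). Both lines thus lack p53, and whether the sub-line is 1 clone is not given in the sources used here. Cells of each line received 5 nM Act D or vehicle, with 24 h given for the treatment, and each of the 4 groups had 3 libraries that the labels call biological replicates. Nothing in the labels says that these came from separate cultures, so that p-values measure the spread between libraries, which may be technical.

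RPL3 mRNA, the target of the sub-line, was 1138 ± 15.3 CPM (counts scaled to library size with TMM factors, mean ± SD, n = 3) with vehicle in HCT 116p53-/- libraries and 1242 ± 82.5 CPM under the label uL3Δ, a log2 difference of 0.13 with an adjusted p of 0.155 by edgeR's quasi-likelihood test. With Act D it was 1127 ± 13.7 and 1223 ± 79.8 CPM. RPL3 mRNA was therefore not lower in the libraries that carry the label, and they are called "libraries labelled uL3Δ" or "the sub-line" below. Library totals were between 10087925 and 21138886 counts. Libraries of one group correlated with r of 0.988 to 0.994 across genes and libraries of different lines with r of 0.833 to 0.859. Replicate 1 of the sub-line with Act D stood farthest from its own group. Of 11 markers of colon epithelium, between 5 and 7 reached 1 CPM in each group, with summed levels of 2476 to 2809 CPM in HCT 116p53-/- libraries and 1594 to 1983 CPM in the sub-line, most of it from KRT8 and KRT18. Among vehicle groups CDH1 (E-cadherin) averaged 66.7 CPM for HCT 116p53-/- against 0.444 CPM for the sub-line, CDX2 14.8 against 0.177 CPM, KRT19 607 against 36.5 CPM and EPCAM 153 against 35.5 CPM, while KRT18 (604 and 839 CPM) and LGR5 (0.0201 and 2.75 CPM) were higher in the sub-line. CDH1 and CDX2 were thus near 0 in the sub-line, and KRT19 and EPCAM were lower but present. With vehicle KRT20 (0.896 and 0.0391 CPM), CDX1 (0 and 0.0225), VIL1 (0.023 and 0.027) and LGALS4 (0.194 and 0.0558) were under 1 CPM in both lines. The 4 fibroblast markers summed to 6.67 to 13.0 CPM in HCT 116p53-/- libraries and 13.6 to 19.2 CPM in the sub-line, where LUM averaged 10.5 (vehicle) and 12.2 CPM (Act D), against 0 and 0.148 CPM. COL1A1 went the other way, at 4.14 (vehicle) and 4.34 CPM (Act D) in the sub-line against 7.48 and 10.2 CPM. COL1A2 and DCN averaged under 1 CPM in each group. The 2 endothelial markers summed to 0.12 to 0.498 and 0.883 to 1.62 CPM, and the 2 markers each of blood, liver and lung to at most 1.16 CPM in any library. Several of these markers move with the line, in both directions, and their part in the differences between the lines was not tested. Genes nearly exclusive to one line were taken as those with a mean of at least 50 CPM in its vehicle group. Each vehicle library of the other line held them at 0.5 CPM or less (12 genes of the sub-line and 5 of HCT 116p53-/- cells). Their median level in those vehicle libraries, 0.0935% to 0.432% of that in their own line, was therefore low by choice. In Act D libraries of the other line, which the choice did not use, it was 0.162% to 0.956%, and the cause of this was not tested.

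A feature the choice of genes did not use is the DNA just before them. RefSeq promoter windows (GRCh38.p14, 250 bases before and 50 after the start of the gene) were given for 50 of the 58 genes. For 11 of these genes 2 windows were given, and the first listed was kept. The E-box CACGTG, a palindrome that reads the same on both strands and is the hexamer bound by MYC and MAX among other factors, was in the window of 23 of the 50 (46%), against 8.77% of all 27305 genes with a window, 12.2% of the 11319 such genes that were tested and 25.6% of 86 other assembly genes. In 22 of the 50 (44%) it lay within 50 bases of the start, against 5.07% of the tested genes. With vehicle, 36.2% of all genes tested were lower and 35.1% higher in the sub-line. Of the 23 genes with the hexamer 12 were lower and 2 higher in that comparison, and of the 27 without it 16 and 5. Thus POLR1A and DDX10 were lower without it, and DDX21 was higher with it. As examples only, the 200 bases before the start are shown for a Pol I subunit, a processome protein and an RNA acetyltransferase whose mRNAs were lower in the sub-line, with the hexamer in capitals. They are also shown for TAF1A, the gene with the largest increase, whose window does not hold it.
POLR1G: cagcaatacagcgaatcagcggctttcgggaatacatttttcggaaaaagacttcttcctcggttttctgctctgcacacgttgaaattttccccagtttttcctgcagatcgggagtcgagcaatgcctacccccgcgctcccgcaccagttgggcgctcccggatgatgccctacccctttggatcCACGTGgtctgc
UTP20: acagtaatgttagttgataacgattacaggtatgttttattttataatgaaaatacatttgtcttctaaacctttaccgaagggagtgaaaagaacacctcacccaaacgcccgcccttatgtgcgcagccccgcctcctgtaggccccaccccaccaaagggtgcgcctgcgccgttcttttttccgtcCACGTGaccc
NAT10: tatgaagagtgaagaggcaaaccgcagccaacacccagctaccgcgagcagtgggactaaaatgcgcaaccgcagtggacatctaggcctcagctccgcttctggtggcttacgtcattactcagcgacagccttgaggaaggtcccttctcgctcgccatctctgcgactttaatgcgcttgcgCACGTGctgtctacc
TAF1A: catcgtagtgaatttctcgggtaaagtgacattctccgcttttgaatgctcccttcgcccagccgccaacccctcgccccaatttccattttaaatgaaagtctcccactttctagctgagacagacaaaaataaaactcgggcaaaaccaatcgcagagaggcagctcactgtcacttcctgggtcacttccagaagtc
These stretches are chr19:45406444-45406643 on the plus strand, chr12:101279905-101280104 on the plus strand, chr11:34105429-34105628 on the plus strand and chr1:222589934-222590133 on the minus strand, each written 5′ to 3′. The hexamer begins 12 bases before the start of POLR1G, 10 before that of UTP20 and 15 before that of NAT10. Of the other motifs searched on both strands, none of whose letters contain another motif, CCGGAAGT (the ETS motif) was in 26% of the 50 windows and 9.56% of those of tested genes, the NRF1 motif in 8% and 2.53%, CCAAT in 42% and 43%, and GGGCGG (GC box) in 66% and 76.2%. These are matches of letters, not measured binding.

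Levels of different genes are compared as CPM per kb of effective transcript length. NPM1, a histone chaperone and one of the most abundant nucleolar proteins, was highest of the 58 in every group, at 1908 CPM per kb in HCT 116p53-/- cells with vehicle, 2058 with Act D, 2664 in the sub-line with vehicle and 2755 with Act D. NCL (nucleolin), NOP56 and FBL (fibrillarin, the methyltransferase of box C/D snoRNPs) followed at 187 to 310.4 CPM per kb in HCT 116p53-/- cells with vehicle. The median member stood at 55.2 CPM per kb there and at 50.9 with Act D, and at 36.1 and 31.4 in the sub-line. TAF1B was lowest in HCT 116p53-/- cells (8.27 CPM per kb with vehicle), while in the sub-line PWP2, taken up separately, UTP20 and POLR1A were lowest. Among Pol I subunits the highest per length was POLR1D, which Pol I shares with Pol III, among Pol I factors TAF1D and in small subunit assembly WDR43, in each of the 4 groups. In large subunit assembly it was PES1 in HCT 116p53-/- cells (118 CPM per kb with vehicle and 122 with Act D), and in the sub-line GNL3 with vehicle (109 CPM per kb) and EBNA1BP2 with Act D (109 CPM per kb).

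The first comparison asks how the 2 lines differ without drug. With vehicle, 33 of the 58 mRNAs were lower in the libraries labelled uL3Δ and 9 were higher (edgeR's quasi-likelihood test, adjusted p under 0.05). The lines differ so widely that 36.2% of all tested genes were lower and 35.1% higher, so that members were called about as often as other genes (72.4% against 71.3%). They were called lower more often (56.9%) and higher less often (15.5%) than all genes. The median log2 difference of the members was -0.32, beside -0.02 over all genes tested. The libraries did not overlap between the lines for 40 members (69%), against 72.5% of all genes. Differences of at least 1 on the log2 scale were 10 lower and 1 higher, while among all genes 19.4% were lower and 18.3% higher. In bulk RNA, fewer cells that express a gene and less of its RNA per cell cannot be told apart. All levels are shares of a library, and scaling by library size alone, which moved the median of all genes to -0.26, gave 43 lower and 4 higher with a members' median of -0.55.

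**Figure D1:**
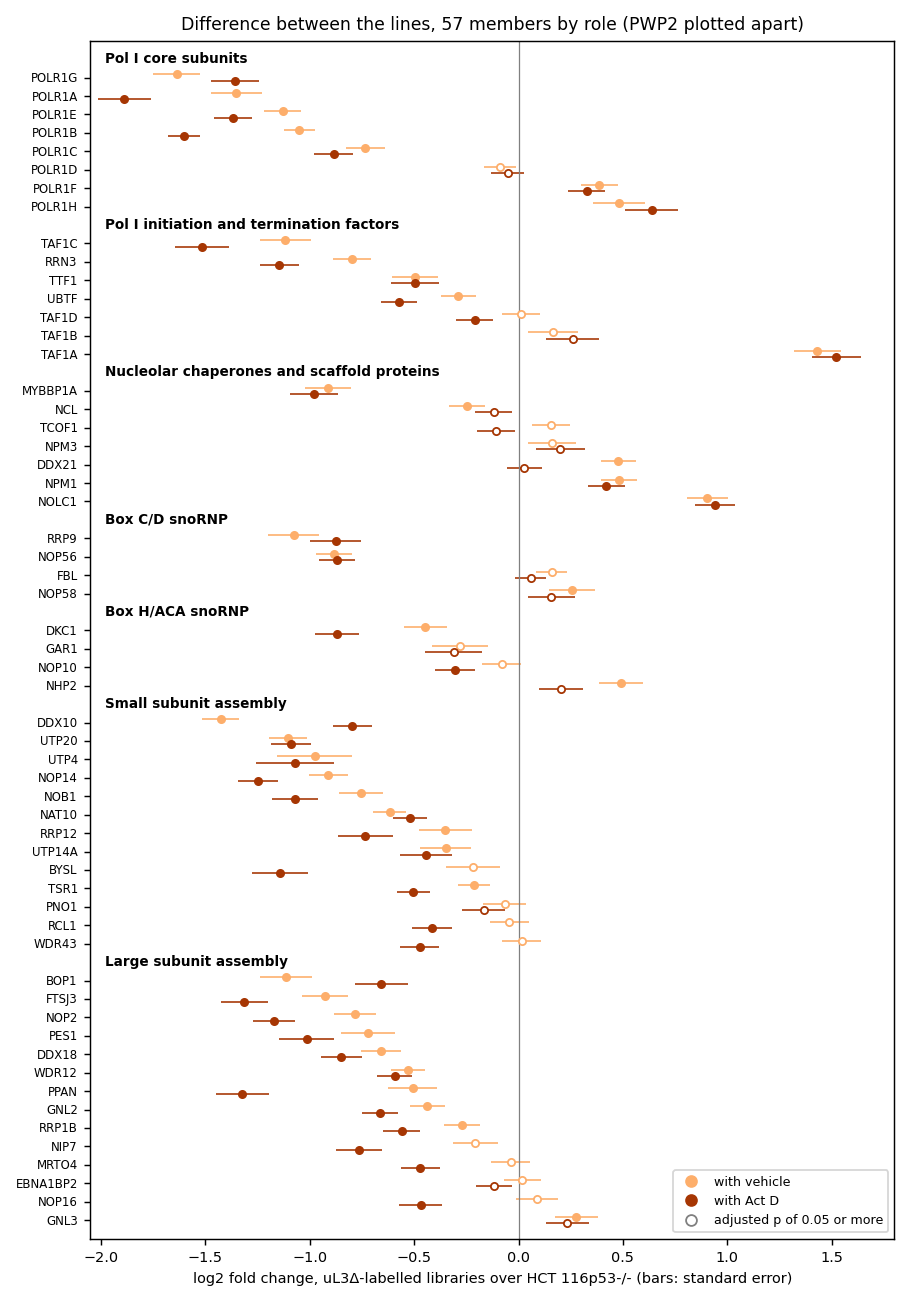
Log2 fold change of each member except PWP2 between the libraries labelled uL3Δ and HCT 116p53-/- libraries (x axis), grouped by role, with vehicle (light) and with Act D (dark); points are estimates from 3 libraries a group, bars are standard errors and open points did not pass an adjusted p of 0.05. Most points lie left of 0, down to -1.89 for POLR1A with Act D, while TAF1A lies farthest right at 1.43 and 1.52.

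The Pol I subunits held several of the strongest decreases. Here and in what follows, values in parentheses open with the log2 difference. Of the 8, 5 were lower and 2 higher, with a median log2 difference of -0.89. POLR1A, the largest subunit, which carries the catalytic centre, measured 154, 172 and 180.5 CPM in the 3 HCT 116p53-/- libraries and 83.9, 54.5 and 60.8 CPM in those labelled uL3Δ. The lowest HCT 116p53-/- library was thus well above the highest of the sub-line, and the log2 difference was -1.35, SE 0.12, adjusted p = 1.5e-08. POLR1B, the second-largest subunit, which completes that centre, was at 158, 149 and 154 CPM against 76.4, 71.7 and 75.3 CPM (-1.05, SE 0.07, adjusted p = 5.48e-10). Its libraries lay close together within each line and far apart between them.

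POLR1G, which forms a dimer on the edge of the polymerase, had the largest decrease among the subunits. It measured 67.3, 77.8 and 54.8 CPM in the parent libraries and 20.9, 20.9 and 22.5 CPM in the sub-line (-1.64, SE 0.11, adjusted p = 3.82e-10). Every library of the sub-line was below every HCT 116p53-/- library. Its partner in the dimer, POLR1E, was also lower (-1.13, SE 0.09, adjusted p = 2.34e-09), and POLR1C, shared with Pol III, was lower as well (-0.73, SE 0.09, adjusted p = 1.27e-06). POLR1D, which pairs with POLR1C, had a difference of -0.09 that did not pass (adjusted p = 0.299). The stalk subunit POLR1F was higher, at 75.3, 84.5 and 81.8 CPM against 65.8, 59.1 and 59.9 CPM (0.39, SE 0.09, adjusted p = 0.000659). POLR1H, the small subunit that assists RNA cleavage, was also higher (0.48, SE 0.12, adjusted p = 0.00206), with 26.1, 29.5 and 24.8 CPM against 21.1, 18.8 and 17.8 CPM. The subunits of one enzyme thus changed in both directions, although scaling by library size alone gave 6 lower and 0 higher, with POLR1H at 0.24 (adjusted p = 0.12). POLR1G overlaps ERCC1 on the other strand, and whether strand was used in counting is not given in the sources used here.

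**Figure D2:**
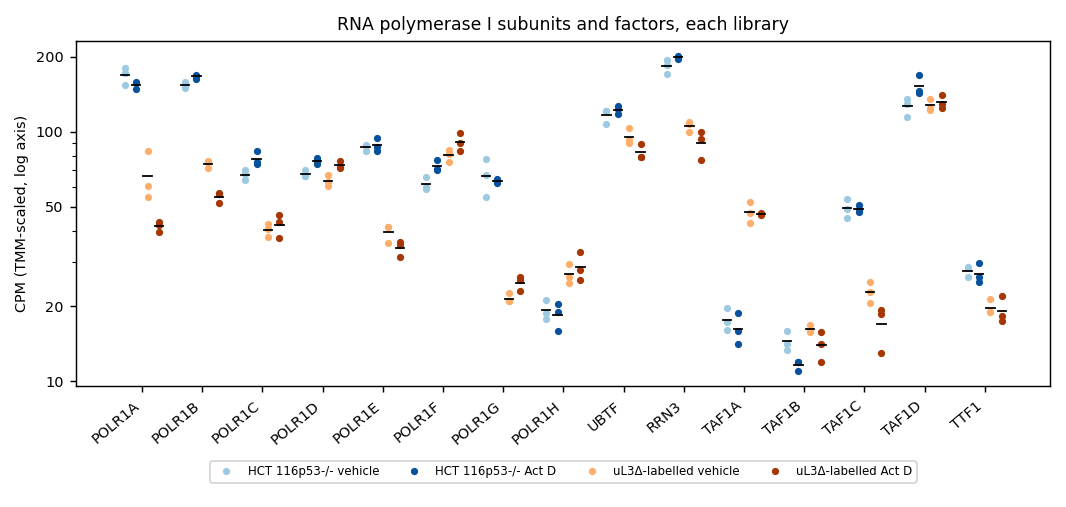
CPM (log axis) of the 8 Pol I subunits and 7 Pol I factors in each of the 12 libraries, with the group mean as a bar. POLR1A, POLR1B and POLR1G lie lower in all 6 libraries of the sub-line, while TAF1A lies higher in all 6.

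Of the 7 Pol I factors, 4 were lower and 1 was higher. TAF1A, a subunit of the selectivity factor, had the largest increase of the whole set, with 19.7, 16.0 and 17.2 CPM in HCT 116p53-/- libraries and 42.9, 52.3 and 47.3 CPM in those labelled uL3Δ (1.43, SE 0.11, adjusted p = 3.45e-09). TAF1C, a subunit of the same factor, moved the other way, with 44.9, 53.8 and 49.2 CPM against 25.1, 20.7 and 22.7 CPM (-1.12, SE 0.12, adjusted p = 2.02e-07). Neither gene's libraries overlapped between the lines. TAF1B and TAF1D, the other subunits, differed by 0.16 and 0.01, which did not pass. RRN3 fell from 183 ± 12.3 to 105 ± 5.17 CPM (-0.80, SE 0.09, adjusted p = 4.05e-07), and the termination factor TTF1 fell by 0.50 on the log2 scale (adjusted p = 0.000632). UBTF was modestly lower, with 121, 121 and 108 CPM against 104, 89.8 and 92.9 CPM (-0.29, SE 0.08, adjusted p = 0.00562). With a correction for GC content and length UBTF was at -0.17 and not called (adjusted p = 0.0557), and with scaling by library size alone it was at -0.53. An antisense gene, TAF1A-AS1, overlaps TAF1A, and reads of the pair cannot be told apart without strand.

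The nucleolar chaperones and scaffold proteins were the role with more increases, 3 of 7 against 2 decreases, and their median of 0.16 became -0.08 with scaling by library size alone (3 higher and 2 lower again). NOLC1, a scaffold that carries snoRNPs to the nucleolus, was highest, at 433, 362 and 367 CPM against 207, 206 and 208 CPM (0.90, SE 0.10, adjusted p = 1.54e-07). NPM1 measured 2191, 2472 and 2337 CPM in the sub-line and 1836, 1667 and 1511 CPM in HCT 116p53-/- cells (0.48, SE 0.09, adjusted p = 8.87e-05). Both genes had every sub-line library above every HCT 116p53-/- library. The helicase DDX21 rose by 0.48 on the log2 scale (adjusted p = 4.83e-05). NCL, an RNA-binding protein of the early precursor, was slightly lower, with 643, 762 and 783 CPM against 935, 873 and 789 CPM (-0.25, SE 0.09, adjusted p = 0.0187), and its lowest HCT 116p53-/- library was just above its highest of the sub-line. Its call was lost without vehicle replicate 1 of HCT 116p53-/- cells (-0.19, adjusted p = 0.0944) or of the sub-line (-0.16, adjusted p = 0.0999), and with a correction for GC content and length (-0.15, adjusted p = 0.0959). With scaling by library size alone NCL was at -0.49 and NPM1 at 0.24, both called. MYBBP1A, a nucleolar protein that binds MYB, fell to 73.5 ± 15.2 from 138 ± 7.29 CPM (-0.91, SE 0.11, adjusted p = 8.99e-07). The histone chaperone NPM3 and TCOF1 (treacle) had differences of 0.16 and 0.16 that did not pass.

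In the box C/D snoRNP, NOP56 and RRP9 were lower and NOP58 higher. NOP56 and NOP58 are paired scaffold proteins of the same particle, and NOP56 measured 370.2, 372 and 341 CPM against 210.5, 191 and 186 CPM (-0.88, SE 0.09, adjusted p = 4.94e-08), whereas NOP58 measured 174, 147 and 124 against 156, 189 and 187 CPM (0.26, SE 0.11, adjusted p = 0.0471). The NOP56 libraries were widely separated and the NOP58 libraries overlapped, and with either scaling by library size or by the upper quartile 2 genes of the 4 were lower and 0 higher. FBL was at 121, 118 and 128 CPM and 131, 138 and 140.3 CPM, a difference of 0.16 that did not pass (adjusted p = 0.0664), although it did with DESeq2 (adjusted p = 0.0443) and with edgeR without vehicle replicate 1 of the sub-line (0.19, adjusted p = 0.0382). In the box H/ACA snoRNP, DKC1 (dyskerin), the pseudouridine synthase, was lower (-0.45, SE 0.10, adjusted p = 0.000988), NHP2 was higher (0.49, SE 0.10, adjusted p = 0.000422) but not called with scaling by library size alone (0.25, adjusted p = 0.0617), and GAR1 and NOP10 had values of -0.28 and -0.08 that did not pass.

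Of the 14 genes of small subunit assembly 10 were lower, and the other 4 did not pass. DDX10, a helicase, had 141, 123 and 118 CPM in HCT 116p53-/- libraries and 48.5, 48.7 and 45.0 CPM in those of the sub-line (-1.43, SE 0.09, adjusted p = 1.13e-10). UTP20 and UTP4, both processome proteins, differed by -1.10 and -0.98 (adjusted p = 5.83e-09 and 9.95e-05), followed by NOP14 (-0.91), NOB1, the nuclease that makes the mature end of the small subunit RNA (-0.76), and NAT10 (-0.62). UTP4 overlaps SNTB2 on the same strand, but the uncertainty that RSEM gave for its count was at most 0.133% of it. Its HCT 116p53-/- libraries were spread, at 68.7, 65.9 and 105.8 CPM, against 53.3, 33.5 and 36.3 CPM in the sub-line. RRP12, UTP14A and TSR1 fell by 0.21 to 0.35 on the log2 scale. BYSL, PNO1, RCL1 and WDR43 were between -0.22 and 0.01 and did not pass.

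PWP2, another processome protein, was counted at 86.4, 95.1 and 81.5 CPM in HCT 116p53-/- libraries and at 0.161, 0.851 and 2.09 CPM in those labelled uL3Δ, which gave the largest value of the set (log2 difference -6.36). The files also hold a second copy of it on chromosome 21 (ENSG00000275464, marked as an artifact of the assembly by GENCODE), whose 3188-base transcript differs from that of PWP2 by 6 bases (99.81% identity). Counts given to that copy averaged 52.6 ± 2.98 CPM in the parent line and 53.01 ± 9.63 CPM in the sub-line. PWP2's own part of the summed count was between 56.9% and 67.0% in HCT 116p53-/- libraries and between 0.3% and 4.5% in the sub-line. The sum of both was 140.2 ± 9.87 against 54.1 ± 8.71 CPM, a log2 difference of -1.38 (SE 0.11, adjusted p = 2.11e-09). The sub-line thus had less of the summed count in every library. With vehicle the near absence was in the count given to PWP2 itself, while that of the copy was similar in both lines. How far the assignment of reads between the copies took part was not tested.

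**Figure D3:**
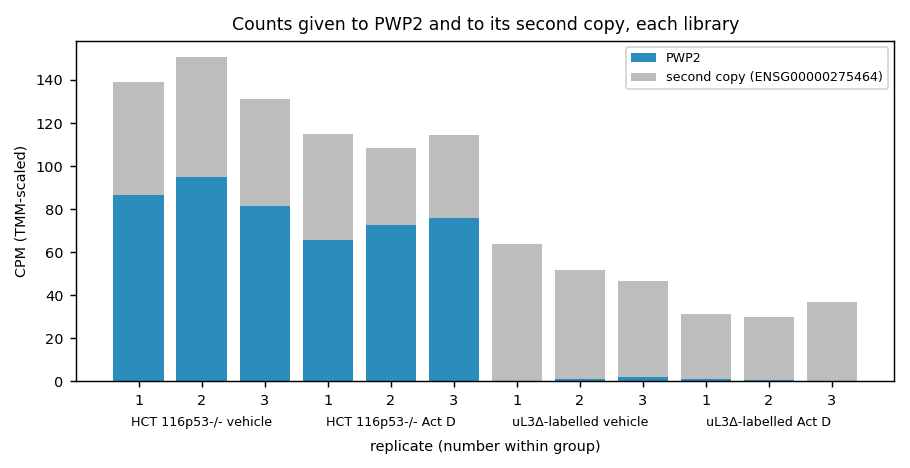
CPM given to PWP2 and to its near-identical second copy, stacked, in each of the 12 libraries (y axis from 0). The sum is 131.1 to 150.7 CPM in HCT 116p53-/- libraries with vehicle and 46.6 to 63.6 CPM in the sub-line with vehicle, where PWP2's own part is at most 2.09 CPM.

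Of the 14 genes of large subunit assembly, 9 were lower and 1 was higher. BOP1, PES1 and WDR12 form one complex needed for processing of the large subunit precursor, and all fell, by 1.11, 0.72 and 0.53 on the log2 scale. BOP1 measured 169, 204 and 182 CPM against 103, 81.6 and 72.2 CPM (SE 0.12, adjusted p = 2.75e-07), with no overlap between the lines. The methyltransferases FTSJ3 and NOP2 fell by 0.93 and 0.78 and the helicase DDX18 by 0.66. NOP2 shares sequence with a second annotated gene (99.87% identity), and with both summed its difference was -0.73. GNL3 (nucleostemin), a GTPase, was the only one of the 14 to rise (0.28, SE 0.10, adjusted p = 0.0238), a call that was lost with library size alone as the scaling, while the related GTPase GNL2 fell by 0.44. EBNA1BP2, MRTO4, NIP7 and NOP16 did not pass, at -0.21 to 0.09.

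The next comparison asks how each line responded to Act D. In HCT 116p53-/- cells 5 members were lower and 3 higher after Act D (edgeR's quasi-likelihood test, adjusted p under 0.05), together 13.8% of the set against 18.7% of all genes tested, of which 11.1% were lower and 7.59% higher. The median log2 change was 0.04, beside 0.02 over all genes. The libraries did not overlap for 23 members (39.7% against 38.2% of all genes). With a log2 change of at least 1, 1 member was lower and 0 higher, against 1.66% and 1.23% of all genes. By these counts the share of the set that responded was near that of other genes.

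DDX10 had the largest decrease, from 141, 123 and 118 CPM with vehicle to 63.3, 57.1 and 61.9 CPM with Act D (-1.07, SE 0.09, adjusted p = 3.16e-07). Every Act D library was below every vehicle library, by more than the spread within either group. DDX10 also spans 275.9 kb of the genome, the longest of the set. BOP1 fell to 113, 109.8 and 106 CPM (-0.75, SE 0.12, adjusted p = 0.000304), and NAT10 fell from 162, 160.5 and 163 to 109, 105 and 116 CPM (-0.56, SE 0.08, adjusted p = 8.46e-05). Both were lower in all 3 Act D libraries. PWP2 summed with its copy had a change of -0.32 (adjusted p = 0.0407). MYBBP1A (-0.42, adjusted p = 0.0128) and UTP20 (-0.30, adjusted p = 0.0286) fell less, and the call of MYBBP1A was lost without Act D replicate 3 (-0.39, adjusted p = 0.0591).

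The 3 increases were smaller. BYSL (bystin), needed for late small subunit maturation, rose from 42.1, 43.6 and 53.7 to 65.5, 59.9 and 66.0 CPM (0.46, SE 0.13, adjusted p = 0.0181). NOLC1 rose from 207, 206 and 208 to 253, 252 and 252 CPM (0.29, SE 0.10, adjusted p = 0.0446), and TAF1D from 129.5, 115 and 135 to 143, 146 and 168 CPM (0.27, SE 0.09, adjusted p = 0.0448). None of these 3 calls held under every alternative, and with library size alone as the scaling the counts were 7 lower and 0 higher, with upper-quartile scaling 4 lower and 5 higher. BYSL lost its call without vehicle replicate 1 (adjusted p = 0.081), vehicle replicate 2 (0.0749), Act D replicate 1 (0.0682) or Act D replicate 3 (0.0537), TAF1D without any one library but vehicle replicate 3 (0.0593 to 0.194) and NOLC1 without any one of the 6 (0.0971 to 0.12). For the Pol I subunits edgeR called 0 of 8, with 3 at an unadjusted p under 0.05, and DESeq2 called POLR1F. POLR1A, POLR1B and POLR1G had values of -0.13, 0.11 and -0.07. Of the 4 box C/D and 4 box H/ACA genes edgeR and DESeq2 called 0, and 0 and 2 had an unadjusted p under 0.05. UBTF, NPM1, NCL and FBL had changes of 0.07, 0.11, 0.15 and 0.06, none of which passed.

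In the libraries labelled uL3Δ, 16 members were lower and 2 higher after Act D, together 31% of the set against 11.9% of all genes tested, of which 8.4% were lower and 3.51% higher. The median log2 change was -0.21, beside 0.03 over all genes, and 43 of the 58 values were below 0 (74.1%, against 45.8% of all genes). Leaving out 1 library of the sub-line at a time gave medians from -0.15 (without vehicle replicate 1) to -0.23 (without vehicle replicate 2). Replicates of one group also differed across the set. Summed without NPM1, NCL and DDX21, the members were at 5410, 4966 and 4781 CPM with vehicle and 4313, 4547 and 4781 CPM with Act D. The libraries did not overlap for 28 members (48.3% against 27.6% of all genes). The changes were small, and 0 members passed with a log2 change of at least 1 in either direction, against 0.733% of all genes lower and 0.554% higher.

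PPAN, a protein of the early large subunit particle, had the largest decrease, from 47.1, 35.9 and 32.8 to 19.1, 19.6 and 21.8 CPM (-0.93, SE 0.13, adjusted p = 0.000107). All 3 Act D libraries were below all 3 vehicle libraries. A read-through gene with P2RY11 covers PPAN, and with its count added the change was -0.96 (adjusted p = 6.39e-05). POLR1A fell from 83.9, 54.5 and 60.8 to 39.6, 43.3 and 42.4 CPM (-0.67, SE 0.13, adjusted p = 0.00179) and POLR1B from 76.4, 71.7 and 75.3 to 51.6, 56.2 and 56.8 CPM (-0.44, SE 0.08, adjusted p = 0.000815). The catalytic subunits thus fell with Act D in the sub-line, without overlap between treatments. The other 6 subunits had values from -0.21 (POLR1E) to 0.21 (POLR1D) that did not pass.

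In small subunit assembly 7 of 14 were lower with Act D in the sub-line. RRP12, needed for nuclear export of the particle, went from 125, 87.1 and 78.8 to 66.4, 65.1 and 74.8 CPM (-0.49, SE 0.13, adjusted p = 0.0195). Its decrease leaned on replicate 1 of the vehicle group, without which it was -0.28 with an adjusted p of 0.0843, and the call was also lost without Act D replicate 1 (0.0721) or 2 (0.0624). WDR43 (-0.48), BYSL (-0.47), NAT10 (-0.46), RCL1 (-0.45), DDX10 (-0.44) and NOP14 (-0.32) were the others. PWP2 summed with its copy fell from 54.1 ± 8.71 to 32.6 ± 3.65 CPM (-0.73, adjusted p = 0.00032). In large subunit assembly 5 of 14 were lower, PPAN, MRTO4 (-0.44), NIP7 (-0.43), RRP1B (-0.43) and DDX18 (-0.42).

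Among the chaperones and scaffold proteins, MYBBP1A fell from 90.5, 61.6 and 68.3 to 55.6, 48.4 and 52.4 CPM (-0.49, SE 0.12, adjusted p = 0.00941), or by 0.32 without vehicle replicate 1 (adjusted p = 0.036), and DDX21 fell by 0.34 (adjusted p = 0.012). NOLC1 rose from 433, 362 and 367 to 438, 454 and 564 CPM (0.32, SE 0.10, adjusted p = 0.0342) and NCL from 643, 762 and 783 to 904, 854 and 896 CPM (0.28, SE 0.09, adjusted p = 0.0495). The NOLC1 and NCL values of both treatments were without overlap but near the threshold. NCL lost its call without any one library of the sub-line but vehicle replicate 3 (adjusted p = 0.0569 to 0.199), and NOLC1 without vehicle replicate 2 (0.114), vehicle replicate 3 (0.116) or Act D replicate 2 (0.0564). Without Act D replicate 3 of the sub-line the change of NOLC1 was 0.17 (adjusted p = 0.3). Scaling by library size alone, which moved the median of all genes to -0.07, gave 24 lower and 0 higher. For the 7 Pol I factors edgeR called 0, with 3 at an unadjusted p under 0.05, and DESeq2 called TAF1C. For the 4 box C/D and the 4 box H/ACA genes edgeR and DESeq2 called 0, with 1 each at an unadjusted p under 0.05. UBTF, NPM1 and FBL had changes of -0.21, 0.05 and -0.04 that did not pass, but with scaling by library size alone UBTF was lower (-0.32, adjusted p = 0.0331).

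Set side by side, DDX10, MYBBP1A and NAT10 fell with Act D in both lines and NOLC1 rose in both. BYSL was called in opposite directions. The change was more negative, or less positive, in the sub-line for 44 of the 58 genes (75.9%, against 50.8% of all genes tested). Tested directly as a difference between the responses of the lines, 7 members had a more negative and 1 a more positive response in the sub-line (edgeR's quasi-likelihood test, adjusted p under 0.05). Together they made 13.8% of the set against 6.53% of all genes tested, of which 3.23% were more negative and 3.3% more positive. The median difference was -0.21 for the set and -0.01 over all genes, and 0 members had a difference of at least 1 either way, against 0.739% of all genes more negative and 1.07% more positive. With 1 library left out at a time, the median of the set was between -0.15 and -0.24.

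**Figure D4:**
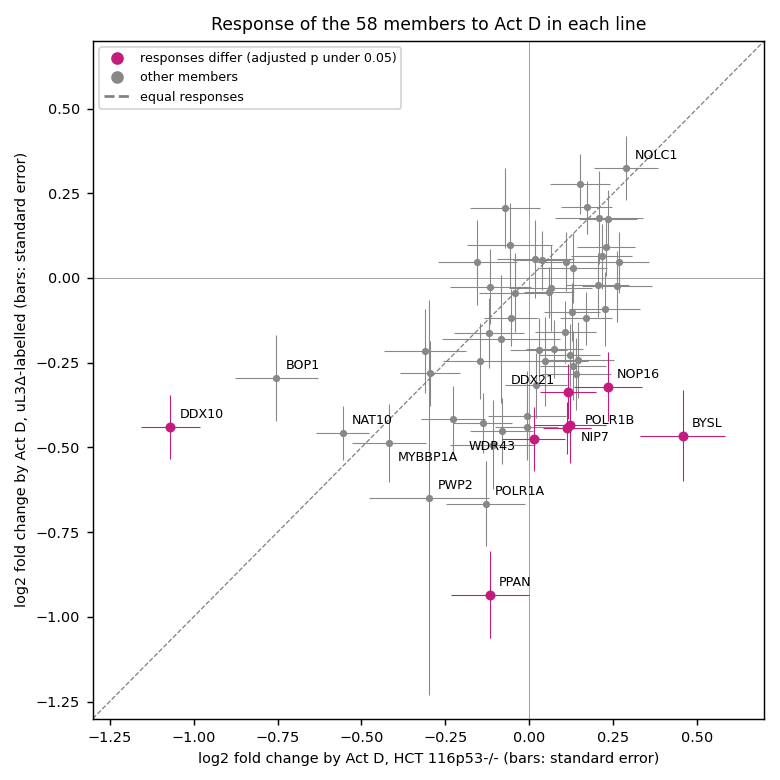
Log2 fold change by Act D of the 58 members in HCT 116p53-/- cells (x axis) and in the libraries labelled uL3Δ (y axis), from 3 libraries a group with standard errors as bars. The 8 members whose responses differed are coloured, and 7 of them lie below the dashed line of equal responses, with DDX10 above it.

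BYSL had the largest difference between the responses (-0.92, SE 0.19, adjusted p = 0.00648). It rose in HCT 116p53-/- cells as described, and in the sub-line it went from 48.9, 38.7 and 32.5 to 28.4, 26.6 and 31.9 CPM. Its Act D libraries lay above all vehicle libraries in one line and below all of them in the other. PPAN (-0.82, SE 0.17, adjusted p = 0.00854) was at 55.2, 58.5 and 50.5 CPM with vehicle and 48.5, 54.8 and 47.8 CPM with Act D in HCT 116p53-/- cells, where its libraries overlapped, beside its decrease in the sub-line. POLR1B (-0.55, SE 0.10, adjusted p = 0.00414) was at 163, 168 and 168 CPM with Act D in HCT 116p53-/- cells, above all 3 vehicle libraries there, while in the sub-line its Act D libraries lay below those with vehicle.

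NIP7 (-0.56, SE 0.15, adjusted p = 0.0382) and NOP16 (-0.56, SE 0.14, adjusted p = 0.0281) of large subunit assembly, WDR43 (-0.49, SE 0.13, adjusted p = 0.0349) of the processome and DDX21 (-0.45, SE 0.12, adjusted p = 0.0272) followed. NOP16 went from 81.1, 82.8 and 75.3 to 91.9, 96.6 and 92.9 CPM in HCT 116p53-/- cells and from 101, 80.5 and 73.4 to 64.5, 65.9 and 73.3 CPM in the sub-line, and passed in neither line alone by edgeR, although DESeq2 called it lower in the sub-line. DDX21 went from 927, 872 and 834 to 636, 746 and 705 CPM in the sub-line and was 680.2, 596 and 613 and then 674, 674 and 699 CPM in HCT 116p53-/- cells. These 4 calls lay near the threshold. Each was lost without vehicle replicate 3 or Act D replicate 1 or 2 of HCT 116p53-/- cells or without Act D replicate 1 of the sub-line (adjusted p = 0.0559 to 0.107), and some without other libraries too, while those of BYSL, PPAN and POLR1B held without any one library.

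DDX10 was the exception, with a smaller decrease in the sub-line than in HCT 116p53-/- cells (0.63, SE 0.13, adjusted p = 0.00694). It fell from 48.5, 48.7 and 45.0 to 34.7, 37.3 and 32.8 CPM there, from a vehicle level already below that reached with Act D in HCT 116p53-/- cells. POLR1A, with -0.54, did not pass (adjusted p = 0.0729), although it did with DESeq2 (adjusted p = 0.0327), with no filter on low counts (0.00471), with a correction for GC content and length (0.00983) and without vehicle replicate 2 of the sub-line (-0.67, adjusted p = 0.0212). Without vehicle replicate 1 of the sub-line it was -0.34 (adjusted p = 0.122). NPM1, NCL, FBL and UBTF had differences of -0.06, 0.13, -0.10 and -0.28, none of which passed.

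The last comparison sets the lines side by side under Act D. It shares its Act D libraries with the responses above, as the comparison with vehicle shares its vehicle libraries, so that none of these values are independent of each other. In the sub-line 40 members were lower and 5 higher, together 77.6% against 70.4% of all genes tested, of which 35.3% were lower and 35.1% higher. The median was -0.57, beside -0.02 over all genes, and the libraries did not overlap for 51 members (87.9% against 74.1% of all genes). Differences of at least 1 on the log2 scale were 16 lower and 1 higher, while among all genes 18.3% were lower and 18.8% higher.

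POLR1A measured 157, 148 and 158 CPM in HCT 116p53-/- cells and 39.6, 43.3 and 42.4 CPM in the sub-line (-1.89, SE 0.13, adjusted p = 3.38e-10). POLR1B had a difference of -1.60 (SE 0.08, adjusted p = 3.27e-12), and TAF1C measured 50.8, 48.8 and 47.5 against 19.4, 13.0 and 18.7 CPM (-1.52, SE 0.13, adjusted p = 8.23e-09). In all 3 genes the sub-line libraries were far below those of HCT 116p53-/- cells. PWP2 was at -6.71 by its own count and at -1.79 summed with its copy (adjusted p = 1.41e-10). All 5 Pol I subunits that were lower with vehicle were lower with Act D, POLR1G at -1.36 and POLR1E at -1.37. UBTF was lower, at 79.2, 79.0 and 89.4 against 123, 118 and 127 CPM (-0.57, SE 0.09, adjusted p = 1.21e-05).

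The 5 higher members were TAF1A (1.52, SE 0.12, adjusted p = 2.45e-09), NOLC1 (0.94, SE 0.10, adjusted p = 1.02e-07), POLR1H (0.64, SE 0.13, adjusted p = 0.000229), NPM1 (0.42, SE 0.09, adjusted p = 0.000348) and POLR1F (0.33, SE 0.09, adjusted p = 0.00291), which were also higher with vehicle. NPM1 was not called with scaling by library size alone (0.17, adjusted p = 0.118). TAF1A measured 46.2, 47.2 and 47.0 CPM against 18.7, 14.1 and 15.9 CPM, and NOLC1 438, 454 and 564 against 253, 252 and 252 CPM, both without overlap. NCL and FBL had differences of -0.12 and 0.06 that did not pass, but with scaling by library size alone NCL was lower (-0.36, adjusted p = 0.00278). POLR1H was at 0.39 with that scaling. By role, 13 of 14 genes of small subunit assembly and 12 of 14 of large subunit assembly were lower. BYSL, FTSJ3 and PPAN were at -1.14, -1.31 and -1.32.

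A further list of 101 genes of ribosome assembly, written by function, was read beside the set, and all 101 were tested. With vehicle 43 were lower and 30 higher in the sub-line (42.6% and 29.7%, against 36.2% and 35.1% of all genes tested). Together they made 72.3%, against 71.3% of all genes. With Act D 51 were lower and 26 higher (50.5% and 25.7%, against 35.3% and 35.1%). The medians were -0.06 and -0.22, beside -0.02 and -0.02 over all genes. DHX37, a helicase of the small subunit processome, fell from 106 ± 10.5 to 30.0 ± 4.56 CPM (-1.83, SE 0.11, adjusted p = 3.72e-11), with DDX31 (-1.55) and URB1 (-1.55) next. CEBPZ rose from 90.2 ± 11.2 to 283 ± 15.1 CPM (1.65, SE 0.11, adjusted p = 1.91e-10), followed by the methyltransferase BUD23 (1.52) and SBDS, which frees the large subunit of a late factor (1.31). The 5 subunits that Pol I shares with the other polymerases, POLR2E, POLR2F, POLR2H, POLR2K and POLR2L, were all higher with vehicle (median 0.57, with 3 of 5 called when library size alone was the scaling), whereas 5 of the 8 Pol I subunits above were lower.

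With Act D, 9 of these 101 genes were lower and 9 higher in HCT 116p53-/- cells (8.91% each, against 11.1% and 7.59% of all genes tested). In the sub-line 21 were lower and 2 higher (20.8% and 1.98%, against 8.4% and 3.51%). The medians were -0.002 and -0.12, beside 0.02 and 0.03 over all genes. RRP7A fell in both lines (-0.84 and -0.66, adjusted p = 3.3e-06 and 7.96e-05), and SBDS (0.53 and 0.29) and the kinase RIOK2 (0.51 and 0.45) rose in both. ZNF622 rose (0.52) and TSR3 (-0.62) and NVL (-0.61) fell in HCT 116p53-/- cells. RRP1 (-0.97) and URB2 (-0.65) fell in the sub-line. Between the responses of the lines edgeR called 1 of the 101 (URB2) and DESeq2 5, all more negative in the sub-line, beside 8 and 10 of the 58. By edgeR this was 0.99% of the list, against 6.53% of all genes tested. The median difference was -0.16 over the 101 genes, with 80.2% of them below 0, close to the -0.21 and 75.9% of the 58, against -0.01 and 50.8% over all genes tested.

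The values of members with and without the E-box overlapped in each comparison. With vehicle the 23 genes that hold it had a median difference between the lines of -0.35 and the 27 without it -0.29, with 12 and 16 lower. Of all genes tested 36.2% were lower there. For the response to Act D in the sub-line the medians were -0.25 and -0.12, with 8 of 23 and 5 of 27 lower, against 8.4% of all genes tested. In HCT 116p53-/- cells they were 0.02 and 0.11. These are descriptions with no test.

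**Figure D5:**
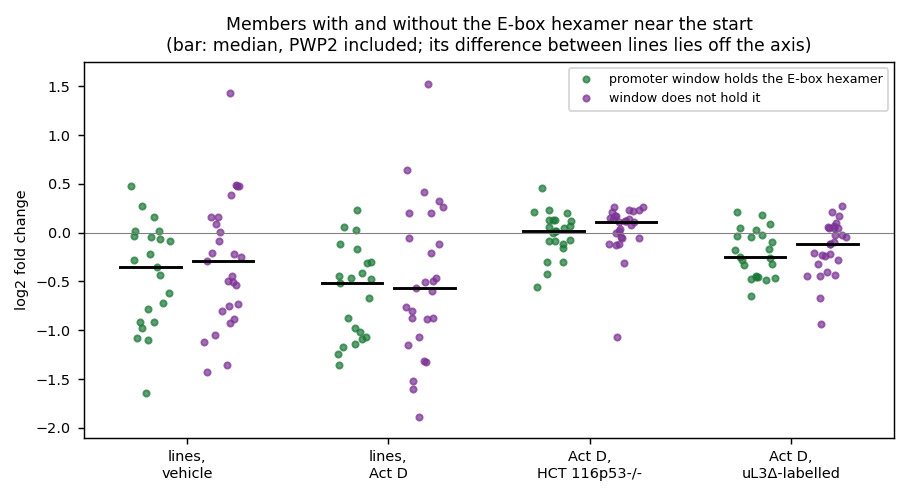
Log2 fold change of the 23 members with and the 27 without the E-box hexamer in their promoter window (points), in 4 comparisons, with medians as bars. PWP2 counts in the medians but lies off the axis between the lines. The ranges of both kinds overlap in each comparison, with medians of -0.35 and -0.29 between the lines with vehicle.

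Some of these genes also hold genes of small nucleolar RNAs within their span, on the same strand. By the GENCODE annotation 10 of the 58 (17.2%) hold 36 snoRNA genes, with 8 in TAF1D, 6 in GNL3, 5 in NOP56 and 4 in NOP58. The share was 1.4% among 19882 protein-coding genes, which include those that did not pass the filter on low counts. With vehicle 6 of the 10 hosts were lower and 2 higher in the sub-line (median -0.23), and of the 48 others 27 were lower and 7 higher (median -0.35). Of all genes tested 36.2% were lower and 35.1% higher. The snoRNAs themselves were not analysed here.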

How the data were processed

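RNA-seq was analysed for TruSeq libraries read from both ends. For 12 libraries (4 groups of 3) the authors quantified trimmed and filtered reads against hg38 and its Ensembl annotation by RSEM 1.2.25 and deposited the expected counts per gene, which can be fractions and carry no normalization. For 1 library the deposited expected counts are per transcript (226788 transcripts) and were summed per gene. Groups came from the labels.

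Counts were rounded, filtered with filterByExpr (15692 of 60617 genes) and scaled by TMM (factors 0.847 to 1.148). One coefficient per group was fitted over all 12 libraries, and 5 contrasts were tested with edgeR 4.0.16 (R 4.3.3, quasi-likelihood test, Benjamini-Hochberg adjustment over all genes tested, threshold 0.05). SE is the fold change divided by the root of the F statistic. CPM are TMM-scaled. Gene positions came from GENCODE 44, promoters from RefSeq (GRCh38.p14). DESeq2 1.42.0, other scalings and filters, a replicate block, only the groups compared, a log2 limit of 1 and each library left out were alternatives. The tests were tested on simulated data. The depth, 10087925 to 21138886 counts, limits the precision of the lowest values.

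All members could be named. Values per library were planned for the 4 largest changes in each direction of each comparison (at least 5 CPM in a group), the members whose responses differed, POLR1A, UBTF, NPM1, NCL, FBL and the highest member per length of each role. They are not printed for all of these. NHP2, NIP7, WDR43, POLR1D, NOP10 and EBNA1BP2 have none, and others lack them in some comparisons. The members and lists were chosen with earlier results of these data known. The authors' TPM and FPKM columns were not used, and protein features were not analysed here.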

Additional observations from a re-analysis of the deposited data

Results flagged for a closer look

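For 8 of the 58 genes the response to Act D differed between the lines by a test of the difference itself (edgeR's quasi-likelihood test, adjusted p under 0.05 over all genes tested, 3 libraries a group). The log2 response in the libraries labelled uL3Δ minus that in HCT 116p53-/- cells was -0.92 for BYSL, -0.82 for PPAN, -0.56 for NIP7, -0.56 for NOP16, -0.55 for POLR1B, -0.49 for WDR43 and -0.45 for DDX21, and 0.63 for DDX10. BYSL, PPAN, POLR1B and DDX10 passed under each alternative without a limit on the fold change, and the other 4 did not. RPL3 mRNA was not lower in the libraries labelled uL3Δ, so that these differences are between libraries as labelled. With 3 libraries a group, single libraries were not examined for standing apart from their group gene by gene.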

How the results depend on the processing

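The replicate numbers did not pair the libraries: same-numbered libraries correlated in their deviations with r between -0.104 and 0.101, and 2 of 12 were closest to a library of their own number. With the number as a block, the Act D response of HCT 116p53-/- cells gave 1 higher member in place of 3, that of the sub-line 0 in place of 2, and the difference between the responses 3 more negative members in place of 7, and no other count moved by over 1.5 times. With a log2 limit of 1, counts higher and lower were 1 and 10 between the lines with vehicle, 1 and 16 with Act D, 0 and 1 for the response of HCT 116p53-/- cells, 0 and 0 for that of the sub-line, and 0 and 0 for the difference between them. Scaling by library size alone gave 4 and 3 higher members between the lines (vehicle and Act D) and 0 and 0 in the responses of HCT 116p53-/- cells and of the sub-line. In HCT 116p53-/- cells 5 were higher with DESeq2, upper-quartile scaling, only the groups compared or the GC and length correction. In the sub-line 0 were higher with no filter or with only the groups compared. The GC and length correction gave 2 more positive responses in place of 1. That correction and the summing of rows that share sequence, which moved no count by over 1.5 times, were chosen after seeing the data.

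Leaving out 1 library at a time gave 7 to 9 higher and 30 to 34 lower members between the lines with vehicle, 5 to 6 and 39 to 41 with Act D, 0 to 2 and 3 to 5 in the response of HCT 116p53-/- cells, 0 to 1 and 11 to 19 in that of the sub-line, and 1 to 2 and 3 to 8 in the difference. The 16 decreases of the sub-line became 12 without its vehicle replicate 1 and 11 without its Act D replicate 1. The 7 more negative responses became 3 without vehicle replicate 3 or Act D replicate 1 or 2 of HCT 116p53-/- cells or Act D replicate 1 of the sub-line, and 4 without vehicle replicate 2 or Act D replicate 3 of HCT 116p53-/- cells. The 3 increases of HCT 116p53-/- cells became 0 without vehicle replicate 1 or 2 or Act D replicate 1 or 3, 1 without Act D replicate 2 and 2 without vehicle replicate 3, and the 5 decreases became 3 without Act D replicate 3. The 2 increases of the sub-line became 0 without vehicle replicate 2 or Act D replicate 2 or 3 and 1 without any other of its libraries. The 1 more positive response became 2 without vehicle replicate 1 of the sub-line.

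Changes of sign were seen in values that had not passed. With library size alone as the scaling FBL was -0.083 (lines, vehicle), -0.187 (lines, Act D) and -0.042 (response of HCT 116p53-/- cells), UBTF -0.027 in that response and NPM1 -0.059 in that of the sub-line. With the GC and length correction FBL was -0.061, -0.112 and -0.022, POLR1A 0.017 in HCT 116p53-/- cells and NPM1 -0.010 in the sub-line. FBL was 0.021 in the sub-line's response with upper-quartile scaling. Leaving out 1 library at a time, FBL between the lines with Act D was -0.026 (without Act D replicate 3 of the sub-line) to 0.071, NPM1 in the sub-line's response -0.016 (without its Act D replicate 2) to 0.089, and NPM1 in the difference between the responses -0.136 to 0.004 (without vehicle replicate 3 of HCT 116p53-/- cells). The cause of these shifts was not tested.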
